A study of Mus musculus with 6 samples.

Results

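The epidermal differentiation complex is a block of genes on mouse chromosome 3 that encode structural proteins of the outer epidermis. Its members were taken by symbol: the late cornified envelope (Lce), small proline-rich (Sprr) and S100a genes, and Flg, Flg2, Ivl, Lor, Rptn, Hrnr, Crnn, Tchh, Tchhl1 and Prr9. Of 18482 genes in the table, 57 were members: 21 LCE, 13 SPRR and 13 S100A genes, 7 genes of the fused-type S100 family and 3 others. Those 3, Lor, Ivl and Prr9, are grouped here under the label of other envelope genes. All 57 lay on chromosome 3 in build GRCm38.p6 (RefSeq), between 90511034 and 93564645.

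As keratinocytes leave the basal layer they make keratins 1 and 10, then load keratohyalin granules with profilaggrin and loricrin. Transglutaminases finally cross-link involucrin, loricrin, SPRR and LCE proteins under the cell membrane into the cornified envelope, the shell of the dead surface cell. S100A8 and S100A9 form the alarmin calprotectin, which skin makes when it is injured or inflamed and which neutrophils carry in large amounts. Trichohyalin hardens the inner root sheath of the hair follicle.

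Ear skin was taken at postnatal day 21, and all mice had received tamoxifen as pups. The lecko group, labelled Vegfr2lecko, was made to delete Kdr, the gene of VEGFR2, in lymphatic endothelium (3 libraries), and the control group was littermates given tamoxifen as well (3 libraries). Tamoxifen started on postnatal day 1 or 10 in the study, and which of these applies here is not stated in the labels. Nor do they state the Cre driver, the alleles of the controls or the sex of the mice. Keratinocytes were not the target of the deletion, and in whole skin fewer cells of a type and less RNA per cell cannot be told apart.

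Libraries held 17242921 to 17825135 estimated counts, of which members took 0.998, 1.04 and 1.04% in lecko libraries and 0.984, 0.965 and 1.07% in controls. Kdr was at 9.76, 11.2 and 10.2 CPM (counts relative to the library total, after scaling between libraries) in lecko skin, against 32.6, 31.3 and 38.5 CPM in control skin (log2 fold change -1.72, SE 0.10, adjusted p = 0.00026 by edgeR). Suprabasal keratinocyte markers were abundant in every library, with Krt10 between 12200 and 14100 CPM in lecko skin and between 13000 and 14500 CPM in control skin. Reads of 4 Y-linked genes were at 0.226 to 1.19 CPM in the lecko libraries and at 1.06 CPM in control 1, but at 246 and 261 CPM in controls 2 and 3. Sex therefore differed within the controls, and control 1 alone matched the lecko libraries. A fit with sex as a term compares the lecko libraries with control 1. The labels name no animal or litter for a library, so each p-value reflects only how these 6 samples vary. Skeletal muscle genes were lower in lecko skin (12 tested, 0 called, median log2 fold change -0.32), with sums of 5264 to 6816 CPM against 7203 to 8090 CPM in control skin. The part of tissue makeup in the values that follow was not tested.

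No member passed the test between lecko and control skin. In edgeR (quasi-likelihood test, p-values adjusted by Benjamini-Hochberg over 14856 genes), 0 members were called higher and 0 lower at an adjusted p of 0.05, against 0.0135% of all genes tested called higher and 0.00673% lower. DESeq2 and limma-voom also called 0 members. Of the 57, 47 had enough reads to be tested, and their smallest adjusted p was 0.385 by edgeR. That was the value of Lce3d, which had enough reads to be tested only through its lecko libraries. At an unadjusted p under 0.05, 11 members were higher and 0 lower, where 4.89% of all genes tested were higher and 3.68% lower. The 11 were Lce1e, Lce1g, Lce1h, Lce1i, Lce1j, Lce1k, Lce3d, Flg, Tchhl1, Prr9 and S100a4. The count fell short of that in several fits: it was 5 without lecko 1, 7 without lecko 2, 4 without control 2, 4 without both lecko 1 and control 1 (chosen after seeing the data), and 3 once sex was a term. Without lecko 1, 3 members were lower at that level.

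The 2 groups did not overlap for 9 members that were higher and for 0 that were lower, while the share of all genes tested was 7.37% higher and 7.23% lower. Lce3d, tested only through its lecko reads, was among the 9. The median log2 fold change over the 47 tested members was 0.12, lecko over control, against 0.01 over all genes tested. It was 0.04 when either lecko 1 or control 2 was omitted, 0.19 when lecko 3 was, and 0.05 once sex was a term. Family medians were 0.13 for LCE, 0.41 for SPRR (-0.16 without lecko 1, 1.60 without control 1 and -0.42 once sex was a term), -0.06 for S100A (0.01 without lecko 3), 0.21 for fused-type S100 and 0.12 for the other envelope genes. Many members are neighbouring copies of one another, so these counts are not over independent genes.

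**Figure D1:**
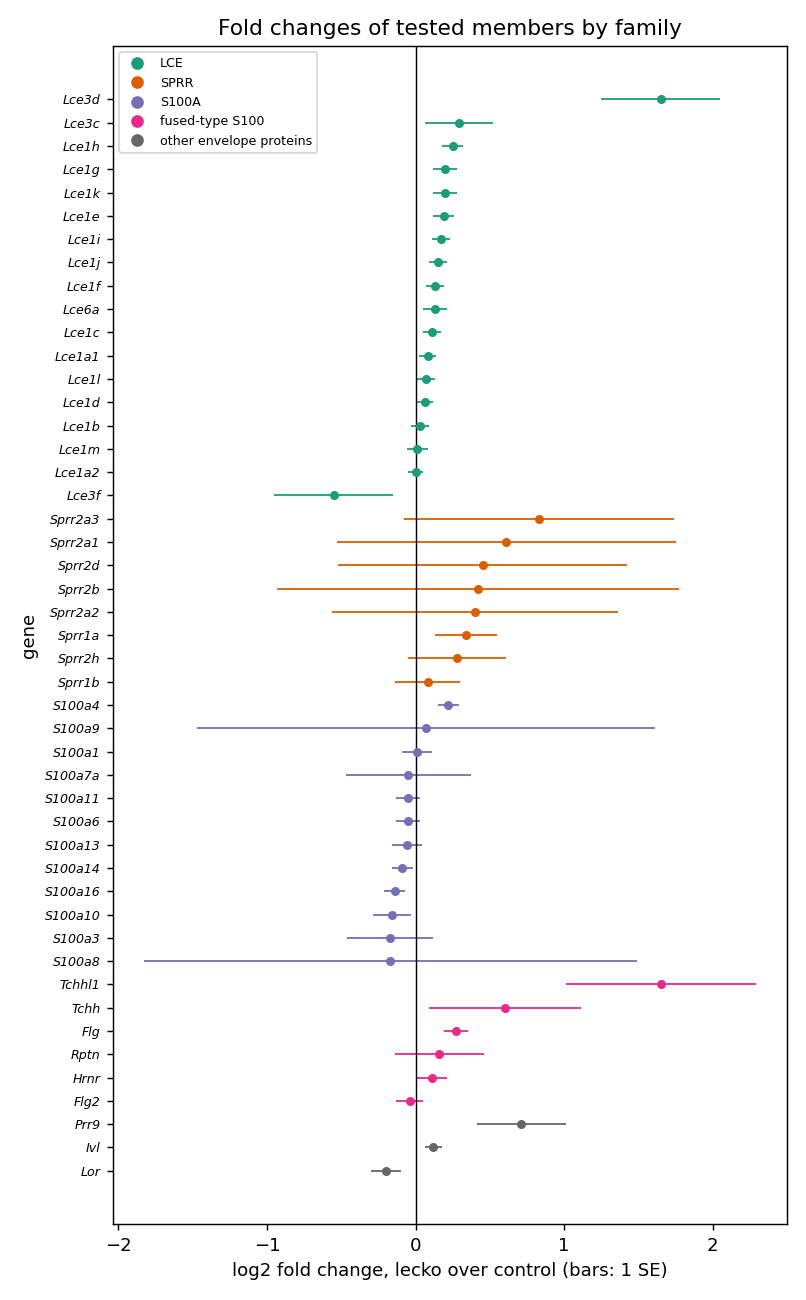
Log2 fold change, lecko over control, of the 47 tested members (points, grouped by family, with bars of 1 SE). LCE1 points lie close to 0 with short bars. S100a8, S100a9 and the SPRR2 genes other than Sprr2h have the longest bars, up to an SE of 1.66 for S100a8.

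**Figure D2:**
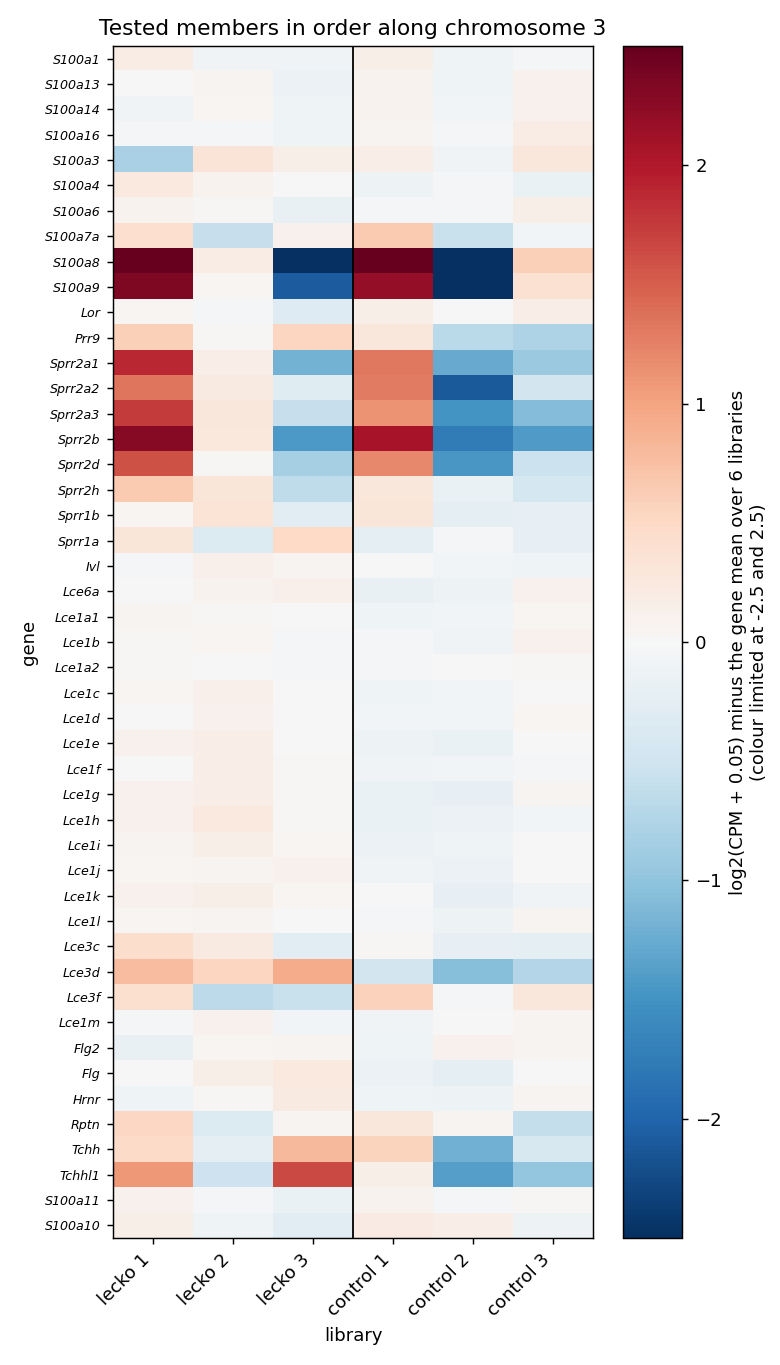
Level of each tested member in each library, as log2(CPM + 0.05) minus the mean of that gene over the 6 libraries, with genes in their order along chromosome 3 and lecko libraries left of controls. The strongest colours are in S100a8, S100a9 and the SPRR2 block, where lecko 1 and control 1 are both high, and not between the groups.

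The spread between libraries divided the members into steady and variable genes. The highest library was less than 1.5-fold above the lowest for 28 of the 47 tested members. For 10 members it was more than 4-fold above. The steady genes included all 14 Lce1 genes (1.06-fold to 1.33-fold), Flg2, Flg, Hrnr, Lor and Ivl. The variable genes included S100a8, S100a9, 5 tested Sprr2 genes, Lce3d, Tchh and Tchhl1. Control 2 was the lowest library for 19 of the 47 tested members, and for 2016 of all 14856 genes tested.

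Fused-type S100 proteins carry an S100 calcium-binding end joined to a long repeat. Filaggrin, cut from the product of Flg, bundles keratin filaments and later yields the free amino acids that hold water in the cornified layer. Flg was at 650, 720 and 774 CPM in lecko libraries 1 to 3, against 585, 552 and 642 CPM in controls 1 to 3. Every lecko library lay above every control for Flg, with lecko 1 at 650 CPM just above control 3 at 642 CPM. Its log2 fold change was 0.27 (SE 0.08), with an unadjusted p of 0.0105 and an adjusted p of 0.504 by edgeR, and leaving out any one library gave 0.21 to 0.33.

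Hornerin (Hrnr) and filaggrin-2 (Flg2), relatives of filaggrin in the same granules, were the most abundant members. Hrnr was at 2190, 2390 and 2760 CPM in lecko skin, against 2180, 2160 and 2470 CPM in control skin (log2 0.11, SE 0.10). Flg2 was at 1820, 2140 and 2180 CPM in lecko skin, against 1920, 2220 and 2170 CPM in control skin (log2 -0.04, SE 0.09, and 0.10 with sex as a term). The groups overlapped for both. Rptn, which encodes the envelope precursor repetin, also overlapped, at 31.8, 17.5 and 23.3 CPM in lecko skin and 27.1, 23.2 and 14.7 CPM in control skin. Crnn, which encodes cornulin, had 10, 3 and 17 reads in lecko skin and 17, 7 and 9 reads in control skin and was not tested.

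Loricrin (Lor) is the main protein of the mature envelope. It was at 1240, 1160 and 960 CPM in lecko libraries, against 1320, 1210 and 1350 CPM in controls. The groups overlapped, and lecko 3 was the lowest library. The log2 fold change of Lor was -0.20 (SE 0.10), with an adjusted p of 0.608 by edgeR. It was -0.10 without lecko 3 and -0.29 without lecko 1. Involucrin (Ivl), the first protein laid down in the envelope, was at 78.7, 87.0 and 83.9 CPM in lecko skin, against 80.1, 76.1 and 73.7 CPM in control skin (log2 0.12, SE 0.06, adjusted p = 0.624 by edgeR). Lor had the opposite sign to Flg and Ivl, and none of these passed the test.

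Per length of the longest coding transcript in GENCODE M21, Lor was the highest of the 4 genes compared here, at 631 CPM per kb in lecko skin and 726 CPM per kb in control skin. Lce1a1 followed at 403 CPM per kb in lecko skin and 381 in control skin. Flg2 was at 292 CPM per kb in lecko skin and 300 in control skin, and Hrnr at 219 CPM per kb in lecko skin and 203 in control skin. Outside these 4 genes, S100a11 was at 692 CPM per kb in lecko skin, above Lor, and at 718 in control skin, below Lor. Flg was not placed on this scale, since the transcript entry used here is 1488 bases long and holds a small part of a long repeat gene.

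The regions 250 bases before the start of Lor (chr3:92083143-92083392, minus strand) and Flg (chr3:93273296-93273545, plus strand) are shown because they belong to abundant envelope genes and hold the letters of an AP-1 motif. AP-1 is a transcription factor known for its role in late keratinocyte genes. Sequences are from RefSeq on GRCm38.p6, 5′ to 3′ on the gene's strand, and capitals mark motif letters found on either strand. The TATA box was searched as TATAAA. The AP-1 motif was searched as TGANTCA, where N is any base. The motif of ETS factors was searched as AGGAAG, which 29.2% of the windows of all genes hold. None of these motifs contains another.
Lor: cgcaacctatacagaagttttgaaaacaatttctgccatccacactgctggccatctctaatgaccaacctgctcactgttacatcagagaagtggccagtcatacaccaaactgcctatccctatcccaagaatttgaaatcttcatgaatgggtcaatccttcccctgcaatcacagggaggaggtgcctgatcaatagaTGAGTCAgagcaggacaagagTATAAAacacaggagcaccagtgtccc
Flg: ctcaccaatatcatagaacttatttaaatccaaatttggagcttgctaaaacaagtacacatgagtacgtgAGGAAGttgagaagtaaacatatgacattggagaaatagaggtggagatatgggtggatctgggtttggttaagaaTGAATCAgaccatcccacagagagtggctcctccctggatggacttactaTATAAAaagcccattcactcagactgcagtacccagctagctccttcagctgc
TGAGTCA starts 48 bases before the start of Lor, and TGAATCA starts 103 bases before that of Flg.

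LCE proteins are small cysteine-rich envelope components added late in cornification. All 14 Lce1 genes were tested, at means of 29.4 to 276 CPM, and 13 of them had a log2 fold change above 0 where 51.9% of all genes tested did. The sizes were small, from -0.00 for Lce1a2 to 0.25 for Lce1h, with a median of 0.12. This median was 0.11 or 0.12 under each other scaling or test tried, 0.15 with sex as a term and 0.08 to 0.14 when single libraries were omitted. Replicates were close: the coefficient of variation lay between 1.73 and 7.65% in lecko skin and between 1.85 and 10.2% in control skin. The groups did not overlap for 6 of the 14, all higher in lecko skin, where 7.37% of all genes tested were. Because Lce1 genes are neighbouring copies, this count is not over independent genes. The sum over Lce1 genes did overlap, at 1995, 2073 and 1935 CPM in lecko skin and 1825, 1839 and 1993 CPM in control skin.

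Lce1h had the smallest p of the Lce1 genes. It was at 62.5, 68.1 and 58.5 CPM in lecko libraries, against 51.3, 52.1 and 55.2 CPM in controls, so that all 3 lecko values were above all 3 control values. Its log2 fold change was 0.25 (SE 0.07), with an unadjusted p of 0.00591 and an adjusted p of 0.467 by edgeR. Lce1i was at 131, 139 and 129 CPM in lecko skin, against 114, 116 and 125 CPM in control skin (log2 0.17, SE 0.06, adjusted p = 0.526 by edgeR). The groups did not overlap for Lce1i either, with control 3 nearest to the lecko libraries.

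The most abundant LCE genes overlapped between the groups. Lce1a1 was at 291, 283 and 279 CPM in lecko skin and 256, 263 and 286 CPM in control skin. Lce1m was at 235, 259 and 229 CPM in lecko skin and 226, 237 and 252 CPM in control skin. Lce1c was at 221, 231 and 211 CPM in lecko skin and 197, 202 and 214 CPM in control skin. For these 3 genes, control 3 reached the range of the lecko libraries. Lecko 2 was the highest library for 10 of the 14 Lce1 genes, and the lowest was control 1 for 8 and control 2 for 6. Of all 14856 genes tested, lecko 2 was highest for 2437, control 1 lowest for 2215 and control 2 lowest for 2016. Lce6a, an LCE gene outside the LCE1 block, was at 74.0, 79.3 and 80.8 CPM in lecko skin and 65.2, 68.2 and 80.5 CPM in control skin.

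**Figure D3:**
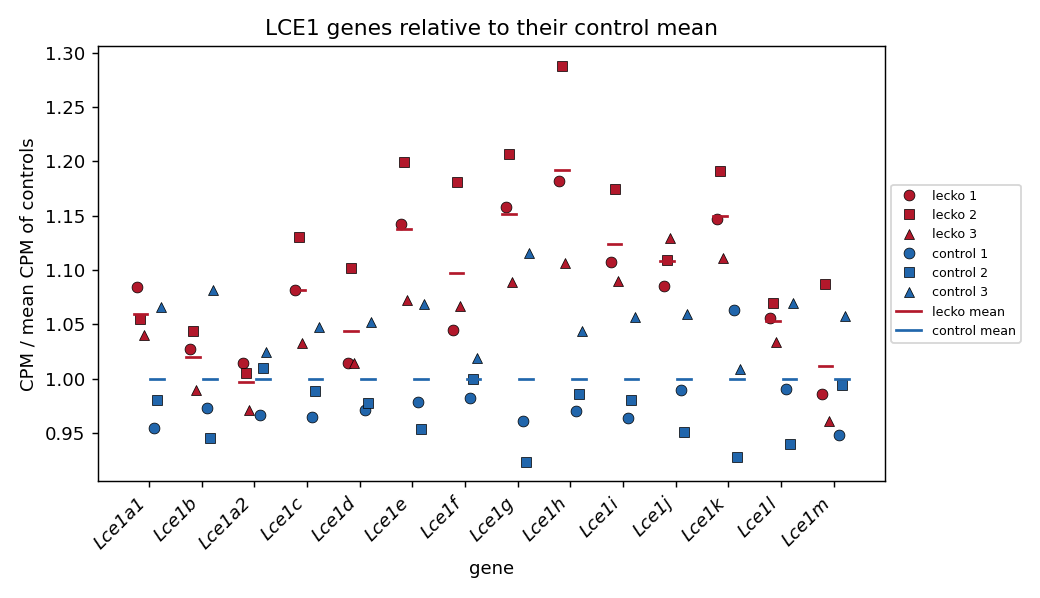
CPM of the 14 Lce1 genes in each library divided by the mean of the 3 controls for that gene, with short lines for group means and lecko points left of controls. The lecko mean is above the control mean for 13 of the 14 genes, and by the most for Lce1h, where all 3 lecko points are above the controls.

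The Lce1 genes are copies of one another, yet most of their transcript sequence is their own: between 0 and 4.9% of the 100-base stretches of a transcript were also found in another gene's transcripts. The regions before Lce1h (chr3:92765066-92765315, minus strand) and Lce1i (chr3:92778900-92779149, minus strand) are shown as those of steady neighbours with the 2 smallest p-values among the Lce1 genes, marked as above.
Lce1h: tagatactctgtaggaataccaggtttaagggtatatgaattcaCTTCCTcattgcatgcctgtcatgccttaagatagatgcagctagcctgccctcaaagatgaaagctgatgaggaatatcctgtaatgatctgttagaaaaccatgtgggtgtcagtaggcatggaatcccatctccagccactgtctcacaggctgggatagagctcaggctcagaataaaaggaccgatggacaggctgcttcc
Lce1i: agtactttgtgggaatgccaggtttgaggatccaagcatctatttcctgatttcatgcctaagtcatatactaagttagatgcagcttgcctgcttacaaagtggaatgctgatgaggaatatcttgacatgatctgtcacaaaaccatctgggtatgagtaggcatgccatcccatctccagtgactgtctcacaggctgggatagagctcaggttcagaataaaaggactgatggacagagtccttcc
Both windows were alike, with 81.3% identity in a global alignment. TGANTCA was in 0 of 13 Lce1 windows and TATAAA in 2 of 13, against 6.85 and 13% of 27025 windows of all genes.

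Genes of the LCE3 group, which human skin is known to switch on after barrier damage, were rare. Lce3c was highest, at 3.39, 2.88 and 2.04 CPM in lecko skin and 2.54, 2.13 and 2.11 CPM in control skin, with overlap. Lce3d had the smallest p of all members, from 13, 11 and 14.62 reads in lecko libraries against 5, 3 and 4 reads in controls. All 3 lecko counts were above the controls (log2 1.65, SE 0.40, unadjusted p = 0.00252, adjusted p = 0.385 by edgeR). It passed the filter on low counts through its lecko reads, and 28.3% of its 100-base stretches were shared with other Lce3 genes. The sum over Lce3 genes, which does not depend on that division, was 6.09, 4.81 and 3.75 CPM in lecko skin and 5.59, 3.28 and 4.0 CPM in control skin, with overlap. Lce3f had a log2 fold change of -0.55 (SE 0.40). Lce3a, Lce3b and Lce3e had too few reads to be tested, with at most 12 in a library.

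SPRR proteins are cross-bridging envelope proteins, and SPRR2 genes are known to rise in stressed epithelia. Their levels differed far more between libraries of a group than between the groups. Sprr2a1 was at 41.9, 12.8 and 4.95 CPM in lecko libraries 1 to 3, against 28.4, 4.68 and 5.95 CPM in controls 1 to 3. Lecko 1 and control 1 were the 2 highest libraries, and lecko 3 and control 2 the 2 lowest. Sprr2a2 was at 20.9, 9.59 and 6.61 CPM in lecko skin and 20.3, 1.87 and 5.96 CPM in control skin. Sprr2d was at 16.5, 5.54 and 3.06 CPM in lecko skin and 12.7, 1.95 and 3.77 CPM in control skin. Sprr2b, at a lower level, was at 3.56, 0.848 and 0.227 CPM in lecko skin and 3.06, 0.172 and 0.228 CPM in control skin.

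Lecko 1 and control 1 were the highest pair for 8 of the 9 Sprr2 genes with more than 3 reads in any library. The exception was Sprr2h, at 5.98, 4.69 and 2.44 CPM in lecko skin and 4.61, 3.39 and 2.80 CPM in control skin. The pair, chosen after these values were seen, was highest for 5.83% of all genes tested. Because Sprr2 genes are neighbouring copies, the count of 8 is not over independent genes. The highest fold change of the Sprr2 genes was that of Sprr2a3, at 3.66, 1.31 and 0.694 CPM in lecko skin and 2.37, 0.345 and 0.475 CPM in control skin, where lecko 1 and control 1 were again on top. The tested Sprr2 genes had log2 fold changes of 0.28 to 0.83 with standard errors of 0.33 to 1.35, and the smallest adjusted p among them was 0.82 by edgeR. Their median of 0.43 (0.68 by limma-voom) became -0.37 if lecko 1 was omitted, 1.78 if control 1 was, and -0.56 once sex was a term. All 6 were below 0 without lecko 1 and likewise once sex was a term, where Sprr2a1 was at -0.51, Sprr2b at -0.98 and Sprr2d at -0.60. Without both lecko 1 and control 1, a setting chosen after seeing the data, it was 0.73 over 5 genes. Sprr2a1 and Sprr2a2 shared 92.5 and 92.8% of their 100-base stretches with other Sprr2 genes, so their separate values depend on how reads were divided. The sum over Sprr2 genes, 98.1, 35.6 and 18.4 CPM in lecko skin and 76.0, 12.7 and 20.3 CPM in control skin, shows the same pair of libraries on top. Sprr2e, Sprr2f, Sprr2i, Sprr2k and Sprr4 were not tested, and Sprr2k had 1 read in all.

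The SPRR1 genes, made in cornifying cells of the follicle mouth and of wounded skin, did not follow that order. Sprr1a was the most abundant SPRR gene, at 69.6, 44.8 and 79.8 CPM in lecko skin and 48.6, 55.8 and 49.0 CPM in control skin. Lecko 1 and lecko 3 were above all controls and lecko 2 below them (log2 0.34, SE 0.21, adjusted p = 0.696 by edgeR). The log2 fold change of Sprr1a was 0.55 without lecko 2 (adjusted p = 0.204 by edgeR) and 0.16 without lecko 3 (adjusted p = 0.934 by edgeR). Sprr1b was at 3.56, 4.35 and 2.84 CPM in lecko skin and 4.27, 2.93 and 2.97 CPM in control skin.

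Windows of 3 Sprr2 genes are shown because they hold motif letters at nearly the same positions: Sprr2b (chr3:92316455-92316704, plus strand), Sprr2d (chr3:92338890-92339139, plus strand) and Sprr2h (chr3:92385435-92385684, plus strand), with the same marks.
Sprr2b: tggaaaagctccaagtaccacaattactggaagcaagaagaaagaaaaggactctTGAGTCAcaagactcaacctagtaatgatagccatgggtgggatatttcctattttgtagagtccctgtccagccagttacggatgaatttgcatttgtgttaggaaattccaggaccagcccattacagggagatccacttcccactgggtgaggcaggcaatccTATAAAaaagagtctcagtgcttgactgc
Sprr2d: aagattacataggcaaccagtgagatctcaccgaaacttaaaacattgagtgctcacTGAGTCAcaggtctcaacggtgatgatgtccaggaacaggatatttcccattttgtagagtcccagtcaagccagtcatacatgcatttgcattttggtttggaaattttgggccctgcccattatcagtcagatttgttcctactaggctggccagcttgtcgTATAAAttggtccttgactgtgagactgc
Sprr2h: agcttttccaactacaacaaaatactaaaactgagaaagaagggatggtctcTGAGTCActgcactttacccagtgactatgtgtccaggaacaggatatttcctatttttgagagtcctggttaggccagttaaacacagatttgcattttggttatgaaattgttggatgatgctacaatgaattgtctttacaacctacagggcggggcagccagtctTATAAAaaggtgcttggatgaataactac
In these 3 windows TATAAA starts 29 bases before the start of the gene, and TGAGTCA starts 195, 193 and 198 bases before it. Of the 10 Sprr2 windows, 7 held both motifs, all with TATAAA at 29 bases, and the windows of Sprr2a1, Sprr2a2 and Sprr2a3 held neither of them. Each window lies before the start farthest 5′ of its gene, and any start further inside a gene was not searched. TGANTCA was in 69.2% of 13 SPRR windows, 33.3% of 54 member windows and 6.85% of those of all genes. TATAAA was in 40.7% of the 54 member windows. Sprr2b and Sprr2d were 65.4% identical and Sprr2b and Sprr2h 63.9%, while Sprr2a1 and Sprr2b were 49.3% identical.

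The calprotectin pair varied most of all members. S100a8 was at 44.9, 8.99 and 1.36 CPM in lecko libraries 1 to 3, from 795, 159 and 24 reads, against 49.5, 0.690 and 12.0 CPM in controls 1 to 3, from 859, 12 and 210 reads. S100a9 was at 57.3, 11.6 and 2.61 CPM in lecko libraries, against 52.0, 1.49 and 14.7 CPM in controls. For both genes lecko 1 and control 1 were highest, then control 3, lecko 2 and lecko 3, and control 2 was lowest. The highest library was 71.8-fold above the lowest for S100a8 and 38.3-fold for S100a9. The log2 fold change was -0.17 (SE 1.66) for S100a8 and 0.07 (SE 1.54) for S100a9. For S100a8 it was -2.01 without lecko 1, 1.53 without control 1, -0.30 without both and -1.43 once sex was a term. For S100a9 the corresponding values were -1.69, 1.55, -0.20 and -1.12. The spread within each group was thus far larger than the difference between the groups.

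Genes of stressed keratinocytes stood in a similar order across the libraries. Krt6b, a keratin of injured epidermis, was at 38.0, 4.69 and 1.04 CPM in lecko skin and 26.0, 0.999 and 12.4 CPM in control skin. Its wound partner Krt16 was at 59.5, 29.6 and 17.1 CPM in lecko skin and 56.9, 15.2 and 32.6 CPM in control skin. Krt6b and Krt16 had the library order of S100a9 exactly. The cysteine protease inhibitor gene Stfa3 was at 38.6, 19.8 and 10.8 CPM in lecko skin and 36.7, 12.4 and 11.7 CPM in control skin. In all, lecko 1 and control 1 were the 2 highest libraries for 9 of 12 tested stress and wound keratinocyte genes. The sum of that list was 540 to 740 CPM in lecko skin and 494 to 743 CPM in control skin. Of its 12 tested genes, 0 passed the test in either direction, and the median log2 fold change was 0.04.

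**Figure D4:**
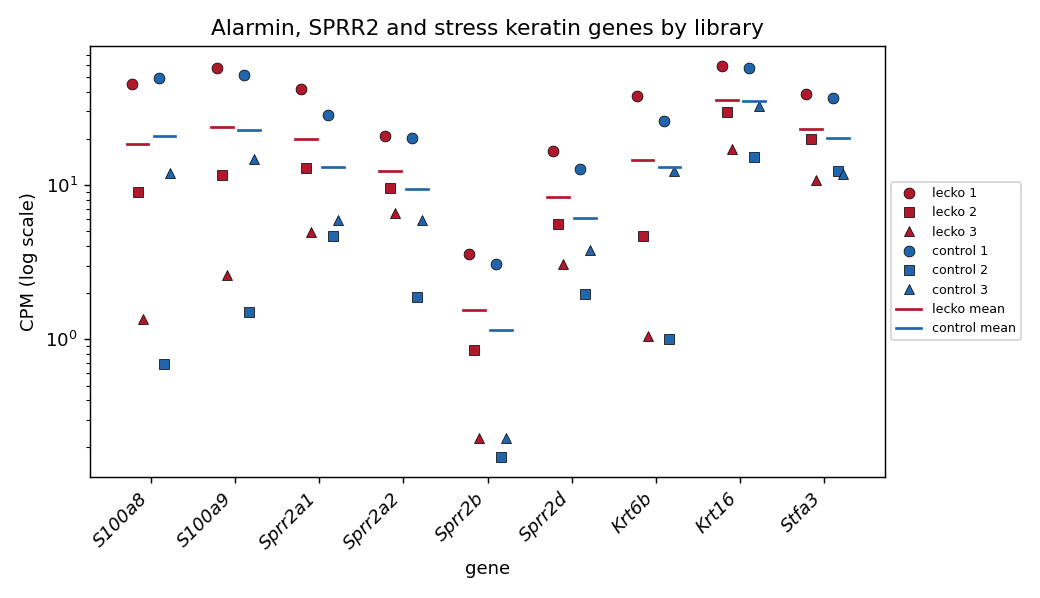
CPM by library on a log axis for S100a8, S100a9, 4 Sprr2 genes, the stress keratins Krt6b and Krt16 and Stfa3, with lecko points left of controls, a symbol for each replicate number and lines for group means. Lecko 1 and control 1 (circles) are the 2 highest points for all 9 genes, and the spread within each group is wider than the gap between the means.

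Among neutrophil markers, Ly6g, Mpo and Elane were at or near 0, while Csf3r and Cxcr2 had reads in every library. Ly6g, a surface marker, had 0, 0 and 1 read in lecko libraries and 0, 0 and 0 in controls, where 0 reads allow a level of up to 0.17 CPM (3 counts, counting error only). The granule genes Mpo and Elane had at most 5 and 2 reads in any library. Retnlg, also on the neutrophil list, had few reads but some in every library: 4, 5 and 5 in lecko libraries and 1, 2 and 6 in controls. The sum over the 13 neutrophil genes, 4 of which were tested, was 109 to 126 CPM in lecko skin and 112 to 126 CPM in control skin, most of it from Il1r2. Csf3r, the receptor for granulocyte colony-stimulating factor, was at 5.81, 3.11 and 3.23 CPM in lecko skin and 2.19, 2.18 and 2.28 CPM in control skin (log2 0.87, adjusted p = 0.504 by edgeR). Control 1, high in S100a8, was not high in Csf3r. Lecko 1 and control 1 were the highest pair for 1 of the 4, the chemokine receptor gene Cxcr2, with 142, 118 and 113 reads in lecko skin and 133, 61 and 116.99 reads in control skin. Cxcr2 had the library order of S100a9 exactly, as Krt6b and Krt16 did. The part of neutrophils in the levels of S100a8 and S100a9 was not tested.

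The other tested S100A genes, small calcium-binding proteins of many skin cells, differed by 1.16-fold to 2.49-fold between the highest and lowest library. Of the 12 tested S100A genes, 9 had a negative log2 fold change. S100a4, known from fibroblasts and leukocytes as well as keratinocytes, was the exception whose groups did not overlap. It was at 187, 169 and 157 CPM in lecko skin, against 144, 155 and 142 CPM in control skin (log2 0.22, SE 0.07, unadjusted p = 0.0151, adjusted p = 0.511 by edgeR). Lecko 3 at 157 CPM was close to control 2 at 155 CPM, and the log2 fold change was 0.14 without lecko 1. Of its 100-base stretches, 50.9% were shared with the overlapping gene model Gm42674. All 10 pan-leukocyte genes were also above 0 in log2 fold change (0 called, median 0.38), with sums of 464 to 598 CPM in lecko skin and 334 to 464 CPM in control skin. The part of leukocytes in the level of S100a4 was not tested.

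The abundant epithelial S100A genes overlapped between the groups. S100a14 was at 341, 373 and 337 CPM in lecko skin and 385, 345 and 390 CPM in control skin. S100a11, a transglutaminase substrate, was at 389, 354 and 319 CPM in lecko skin and 381, 354 and 365 CPM in control skin. Of the 100-base stretches of S100a11, 34.0% were shared with the gene models Gm12854 and Gm7665. S100a10, the partner of annexin A2, was at 256, 216 and 189 CPM in lecko skin and 265, 260 and 212 CPM in control skin. S100a16 was at 197, 199 and 190 CPM in lecko skin and 215, 199 and 233 CPM in control skin (log2 -0.14, SE 0.07, adjusted p = 0.596 by edgeR). Lecko 3 was the lowest library for 6 of the 12 tested S100A genes, and for 2797 of all 14856 genes tested. S100a6, S100a1, S100a13, S100a3 and S100a7a overlapped too, with log2 fold changes of -0.17 to 0.01. S100a5 had at most 1 read in a library and was not tested.

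The window before S100a8 (chr3:90668821-90669070, plus strand) is shown as that of the most variable member, marked as before.
S100a8: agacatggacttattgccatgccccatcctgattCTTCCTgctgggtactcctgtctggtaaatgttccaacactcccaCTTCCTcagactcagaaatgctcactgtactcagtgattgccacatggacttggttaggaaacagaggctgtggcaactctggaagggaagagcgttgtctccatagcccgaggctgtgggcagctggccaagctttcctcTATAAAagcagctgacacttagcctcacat
TATAAA starts 30 bases before the start and AGGAAG, read as CTTCCT, stands at 216 and 171 bases. TGANTCA is not in this window, and S100a8 and Sprr2b were 49.5% identical there.

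The hair gene Tchh, its relative Tchhl1, and Prr9 were higher on average in lecko skin, with overlap. Tchh, which encodes trichohyalin, was at 18.1, 11.1 and 22.8 CPM in lecko skin and 19.0, 5.58 and 9.82 CPM in control skin (log2 0.60, SE 0.51, adjusted p = 0.785 by edgeR). Tchhl1 was at 1.81, 0.565 and 2.72 CPM in lecko skin and 0.923, 0.287 and 0.400 CPM in control skin (log2 1.65, SE 0.64, unadjusted p = 0.0344, adjusted p = 0.551 by edgeR). Prr9, a proline-rich gene between Lor and the SPRR2 block, was at 6.09, 4.13 and 5.85 CPM in lecko skin and 4.96, 2.53 and 2.34 CPM in control skin (log2 0.71, SE 0.30, unadjusted p = 0.0464, adjusted p = 0.576 by edgeR). Control 1 stood among the lecko libraries for all 3 genes. Once sex was a term, the log2 fold changes were -0.13 for Tchh, 0.87 for Tchhl1 and 0.11 for Prr9, and 1.16, 2.27 and 1.13 if control 1 was omitted.

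Some keratins of the inner root sheath had the library order of Tchh or Tchhl1. Krt71 was at 6.83, 5.09 and 12.3 CPM in lecko skin and 6.75, 1.84 and 3.48 CPM in control skin, and its libraries had the order of those of Tchhl1. Krt25 was at 4.35, 2.77 and 6.58 CPM in lecko skin and 5.19, 0.747 and 1.60 CPM in control skin, with the library order of Tchh. Krt28 and Krt73, both highest in control 1, had neither order. Of 16 tested hair shaft and inner root sheath genes, 0 were called, 13 were above 0 and the median log2 fold change was 0.73. Below 0 were Crym (-0.36) and the most abundant tested genes of the list, Foxn1 (-0.12) and Msx2 (-0.16). The summed level of the 28 in the table was 56.8 to 77.7 CPM in lecko skin and 39.7 to 67.3 CPM in control skin. How far the share of hair follicle in each sample bears on Tchh, Tchhl1 and Prr9 was not tested.

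**Figure D5:**
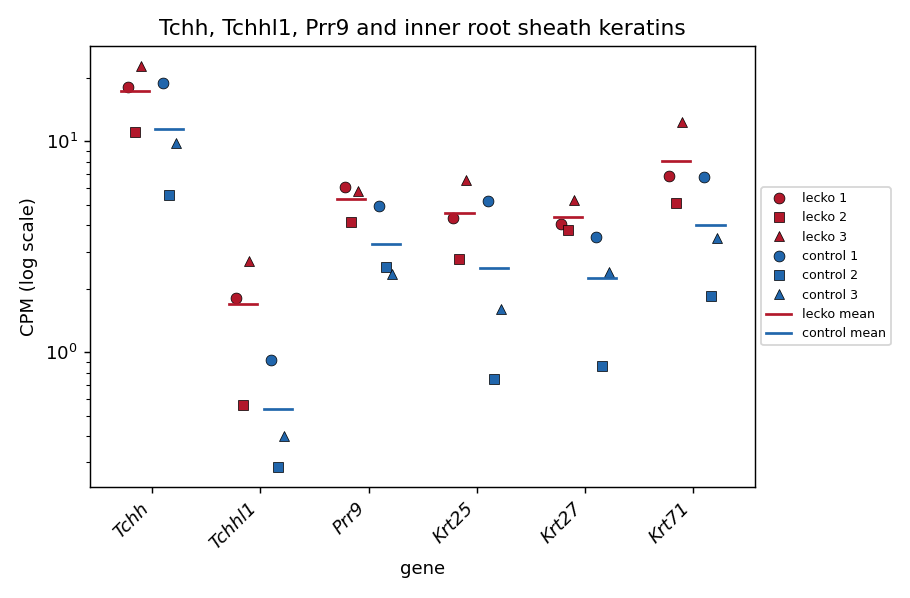
CPM by library on a log axis for Tchh, Tchhl1, Prr9 and 3 keratins of the inner root sheath, with lecko points left of controls and lines for group means. Control 1 lies among the lecko points for most genes, and control 2 is the lowest for all but Prr9.

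No gene on the lists of envelope assembly or barrier lipids passed the test. Of 20 tested genes of envelope assembly and scaffold, 0 were called, and the median log2 fold change was -0.06. Klk5, a protease that sheds surface cells, was at 130, 139 and 144 CPM in lecko skin, against 146, 148 and 162 CPM in control skin (log2 -0.15, SE 0.06, adjusted p = 0.574 by edgeR). Krtdap, a small secreted keratinocyte protein, was at 1060, 1060 and 1020 CPM in lecko skin, against 1130, 1070 and 1340 CPM in control skin. Of 18 barrier lipid genes, 0 were called, with a median of -0.04. Aloxe3, a lipoxygenase needed to attach lipids to the envelope, was at 125, 120 and 124 CPM in lecko skin, against 147, 134 and 139 CPM in control skin (log2 -0.19, SE 0.06, unadjusted p = 0.00872, adjusted p = 0.501 by edgeR). The groups did not overlap for 4 of the 20 envelope genes, all lower in lecko skin (Klk5, Krtdap, Sbsn and Dmkn), where 7.23% of all genes tested were. Of the 18 lipid genes, 2 were lower without overlap (Aloxe3 and Cers3) and 1 was higher.

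Regulators of keratinocyte differentiation gave 0 calls among 20 tested, with a median log2 fold change of -0.02. Klf4, a factor of the barrier programme, was at 546, 620 and 538 CPM in lecko skin and 596, 608 and 528 CPM in control skin. Trp63, which maintains the basal layer, was at 391, 310 and 414 CPM in lecko skin and 420, 441 and 412 CPM in control skin. The 6 suprabasal keratins had 0 calls and a median of -0.04, and Krt1 was at 2870, 1980 and 2410 CPM in lecko skin and 2150, 1640 and 2530 CPM in control skin. Basal keratinocyte genes had 0 calls among 10 and a median of -0.11. All 10 were below 0 (-0.26 to -0.08), where 51.9% of all genes tested were above 0. The sums of the basal genes overlapped, at 10195 to 10808 CPM in lecko skin and 10538 to 11846 CPM in control skin.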

How the data were processed

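The authors deposited 1 table of estimated counts per gene for 6 libraries of polyadenylated RNA. In each library 9.6 to 10.5% of its values have decimals, hence the unit. Per the submitters' processing notes the build was GRCm38.p6 and the tools included RSEM 1.3.1, Bowtie2 2.4.5 and HISAT2 2.2.1. What each tool did, the annotation and the strand setting are not stated there or in the labels. Such counts divide reads among similar genes, which affects the values of the Sprr2a genes, Lce3c, Lce3d, Lce3e, Lce3f, S100a4 and S100a11 most.

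Here counts were rounded, filtered (filterByExpr, minimum count 10, minimum total 15), scaled by TMM and tested with edgeR 4.0.16 in R 4.3.3 (robust quasi-likelihood, group as sole term), with Benjamini-Hochberg adjustment over 14856 genes. Alternatives were DESeq2 1.42.0, limma-voom (limma 3.58.1), other scalings and filters, a replicate block, sex as a term (4 Y-linked genes, threshold 10 CPM) and leaving out libraries. Pairs of replicates varied 8.141 to 16.819 times as much as sampling noise, so no library was a copy of another in its group. Whether they came from different animals cannot be told from this. Scripts were tested on simulated data. Table identifiers matched RefSeq for 18432 of 18482 genes, all members included. Motifs were searched on both strands of the 250 bases before the start farthest 5′ of each gene, found for 54 members.

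Members and lists were chosen with earlier results of these data known. Named members were the 3 most abundant and the 3 with the smallest p in each family, and genes of other lists were drawn from the first 3 by p and 2 by level. Lce3c, Lce3f, Lce6a, Sprr2b, Sprr2d, Sprr1b, S100a8, S100a9, Rptn and the stress, neutrophil, hair and neighbouring genes beyond that rule were named after their values were seen.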

Additional observations from a re-analysis of the deposited data

How the results depend on the processing

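No member was called under any of the 16 alternatives run, and the smallest adjusted p of a member was 0.204 (Sprr1a, without lecko 2, edgeR). Over all genes, 2 were called higher and 1 lower. DESeq2 called 24 higher and 8 lower, and leaving out each library gave 2 to 36 higher and 1 to 5 lower, with 36 higher without control 2 and 5 lower without control 1. Without replicate 1 of both groups, a setting chosen after seeing the data, 5 were lower. The median log2 fold change of the tested members was 0.12, 0.05 with sex as a term and 0.04 to 0.19 with each library left out. The SPRR median was 0.41, -0.42 with sex as a term and -0.16 to 1.60 with each library left out. With sex as a term, directions turned for Sprr2a1 (-0.51), Sprr2a2 (-0.71), Sprr2a3 (-0.33), Sprr2b (-0.98), Sprr2d (-0.60), Sprr2h (-0.08), S100a9 (-1.12), Flg2 (0.10) and Tchh (-0.13). All 6 tested Sprr2 genes also turned without lecko 1, among them Sprr2a2 (-0.22) and Sprr2h (-0.02). Genes near 0, such as S100a8, S100a9, S100a11, Flg2 and Lce1m, turned when some single libraries were left out. Over libraries left out, Sprr2a1 ranged from -0.56 to 1.90 and Sprr2a3 from -0.10 to 2.21. The cause was not tested.

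The replicate numbers do not pair the samples by the labels. Deviations from the group mean of same-numbered libraries correlated at 0.34, -0.07 and 0.03, and lecko 1 alone correlated best with its own number. With a replicate block, 2 genes were higher, 1 lower and 0 members were called, and the member median was 0.12. Members with few reads, such as Lce3d with 3 to 14.62 in a library, are limited by depth.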

Other observations

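Inside the span of the members lie 8 further genes of the table, of which 5 were tested and 0 called by edgeR, with 1 higher at an unadjusted p under 0.05. Kprp, a keratinocyte proline-rich gene between Lce1k and Lce1l, was at 520, 522 and 535 CPM in lecko skin and 472, 521 and 489 CPM in control skin. The unnamed gene 2310050C09Rik was at 404, 428 and 439 CPM in lecko skin and 375, 395 and 402 CPM in control skin, with no overlap (log2 0.12, adjusted p = 0.615 by edgeR). The peptidoglycan recognition genes Pglyrp4 and Pglyrp3, which lie between S100a9 and Lor, had opposite signs. Pglyrp4 was at 28.0, 25.4 and 27.8 CPM in lecko skin and 22.5, 22.5 and 25.9 CPM in control skin (log2 0.20), and Pglyrp3, whose groups did not overlap, at 12.1, 11.2 and 11.3 CPM in lecko skin and 13.1, 12.9 and 12.9 CPM in control skin (log2 -0.17). Their adjusted p-values by edgeR were 0.58 and 0.624.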
